A study of Mus musculus with 40 samples.

Results

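The genes described here build and move the actin skeleton of the B cell, and 46 were listed for their known roles. A member was measured where a probe of the platform annotation carries its symbol, which held for 43 of the 46, with 66 probes in all, out of 21892 genes with 30625 probes. Actr2, Arpc3 and Diap1 carry no row under that symbol and are not analysed here. Where a gene had several probes, their mean was taken. The cells were spleen B cells of C57BL/6 mice aged 12 weeks, taken from 10 wild-type animals and 10 animals lacking Dock10, and enriched by removal of the other cells with magnetic beads. RNA was measured before culture in all 20 mice, which gave 10 arrays each of WT_Pre and KO_Pre. Cells of the mice numbered 6 to 10 of each genotype were also kept in medium for 18 h. With nothing added they gave 5 arrays each of WT_Ctrl and KO_Ctrl, and with interleukin 4 (IL-4) of the mouse, used at 10 ng/ml, 5 each of WT_IL4 and KO_IL4. Each of the 40 Agilent arrays compared a sample labelled with Cy5 with one reference labelled with Cy3, by the labels a pool of the KO_Pre RNA of mice 6 to 10. A value is the log2 ratio of sample to reference, so 0 is the level of that gene in the pool, and ratios of different genes do not rank their abundance. The labels do not say how the Dock10 allele was made or whether it was removed in all tissues.

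Actin is kept as a store of monomers bound by thymosins and profilin and is built into branched filaments by the Arp2/3 complex, which the WAVE and WASP proteins switch on below the membrane. Filaments are lengthened by Ena/VASP proteins, capped, bundled by crosslinkers, pulled by myosins and tied to the membrane by ezrin, moesin and radixin. In B cells this network spreads the cell on antigen and limits the movement of the antigen receptor. Dock10 is an exchange factor that loads the GTPases Cdc42 and Rac, which act upstream of WASP and WAVE. Interleukin 4 is a T cell cytokine that keeps resting B cells alive and readies them for activation.

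Promoter sequences from RefSeq (GRCm38.p6), from 250 bases before to 50 bases after the gene start, were matched for 39 of the 43 members. The 4 below belong to the genes the results turn on most: Vim and Flna, the members furthest below wild-type in knockout cells, Actn1, whose genotype difference changed sign with IL-4, and Actg1, a cytoplasmic actin gene that holds a serum response factor box (CArG box). Capitals mark the CArG box, GGGCGG and TATAAA, searched on both strands, so that GGGCGG on the other strand appears as CCGCCC.
Vim (chr2:13574061-13574360, forward strand): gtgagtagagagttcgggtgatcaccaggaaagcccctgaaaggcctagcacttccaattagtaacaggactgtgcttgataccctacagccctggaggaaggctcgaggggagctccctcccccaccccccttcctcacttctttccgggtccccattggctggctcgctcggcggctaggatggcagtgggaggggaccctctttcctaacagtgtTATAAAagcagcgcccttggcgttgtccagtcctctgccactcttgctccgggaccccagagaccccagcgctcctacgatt
Flna (chrX:74246485-74246784, reverse strand): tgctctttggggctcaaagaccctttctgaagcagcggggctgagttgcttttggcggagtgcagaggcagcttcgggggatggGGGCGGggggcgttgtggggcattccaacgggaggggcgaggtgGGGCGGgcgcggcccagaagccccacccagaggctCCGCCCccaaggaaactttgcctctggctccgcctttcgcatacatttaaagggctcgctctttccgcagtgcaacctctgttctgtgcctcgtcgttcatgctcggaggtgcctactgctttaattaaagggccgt
Actn1 (chr12:80260314-80260613, reverse strand): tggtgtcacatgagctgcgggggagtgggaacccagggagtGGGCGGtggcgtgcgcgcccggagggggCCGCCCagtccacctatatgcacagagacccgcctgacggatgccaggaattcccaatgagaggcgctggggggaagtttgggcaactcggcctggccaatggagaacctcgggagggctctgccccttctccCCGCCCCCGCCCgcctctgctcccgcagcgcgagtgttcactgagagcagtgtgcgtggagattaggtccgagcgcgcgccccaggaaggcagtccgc
Actg1 (chr11:120348446-120348745, reverse strand): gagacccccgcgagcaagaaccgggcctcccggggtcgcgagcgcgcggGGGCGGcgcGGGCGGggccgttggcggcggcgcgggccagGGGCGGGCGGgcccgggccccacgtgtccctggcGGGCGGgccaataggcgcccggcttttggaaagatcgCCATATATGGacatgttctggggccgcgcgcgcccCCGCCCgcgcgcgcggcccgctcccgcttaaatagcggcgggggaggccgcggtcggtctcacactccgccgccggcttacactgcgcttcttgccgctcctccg
The Vim window holds TATAAA at position -32 from the gene start and no GGGCGG. Flna holds 3 copies of GGGCGG, Actn1 holds 4, of which 2 adjoin, and Actg1 holds 6, of which 2 overlap, with the CArG box at -90. The 39 members have 52 promoters in that table. A CArG box was present in 1.63% of all 32851 promoters of that length and in 2 of the 52, those of Actg1 and Arpc4. GGGCGG was present in 35.7% of all promoters and in 33 of the 52, and TATAAA in 13.6% and in 5 of the 52 (Arhgdib, Fscn1, Hcls1, Myh9 and Vim). These matches describe the letters of the windows.

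Dock10 itself was below wild-type in knockout cells by a log2 difference of -0.38 before culture (adjusted p = 1), -0.54 with nothing (adjusted p = 0.0295) and -1.07 with IL-4 (adjusted p = 0.000223). The call with nothing was lost in 7 of 18 alternatives, namely without any 1 of WT_Ctrl 8 and 9 and KO_Ctrl 6 and 9 (adjusted p of up to 0.0884), with only the groups compared (0.0851), among genes of high SD (0.081) and after quantile normalization (-0.33, adjusted p = 0.472). With IL-4 it differed from culture with nothing by 2.16 in wild-type and 1.64 in knockout cells (difference of effects -0.53, adjusted p = 0.273), and culture with nothing moved it by -0.87 and -1.02 (difference -0.16, adjusted p = 0.784). That difference was -0.08 without the arrays before culture numbered 10, -0.02 without WT_Pre 10 alone and -0.25 without KO_Ctrl 10. The mean of its 3 probes ran from -1.56 to 0.83 in the knockout groups, as a log2 ratio to a pool that is itself of knockout cells. Such a ratio gives no absolute level of Dock10 RNA. Where the probes lie relative to the deleted part was not analysed here. The array median over the measured members ran from -0.29 to 0.13 in WT_Pre, -0.23 to 0.14 in KO_Pre, -0.53 to -0.22 in WT_Ctrl, -0.80 to -0.59 in KO_Ctrl, -0.68 to -0.45 in WT_IL4 and -0.77 to -0.58 in KO_IL4. The array medians over all genes stayed between -0.28 and 0.00. Of the 17 members with several probes, 0 had probes called in opposite directions in any comparison, but between 2 and 8 of them, depending on the comparison, had probes with log2 differences of opposite sign. The widest gap between probes was 1.19, for Tpm3 in KO_Ctrl against KO_Pre. The arrays of wild-type mouse 6 stand apart in culture, with the lowest ratio of their group for 30 of the 43 members without IL-4 and for 30 with it. The arrays before culture numbered 1 to 4 and 10 of both genotypes had Xist log2 ratios of 4.74 to 5.92 and Eif2s3y ratios of -11.14 to -10.10, against -1.59 to 0.85 and -0.15 to 0.68 in the other 30, which include the cultured arrays numbered 10. For number 10 the sex-linked RNA therefore differed between the arrays before and after culture, and the culture comparisons are given with and without the arrays before culture numbered 10. A ratio to a pool of B cells holds no absolute level, so the presence of the defining B cell markers could not be read from it.

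**Figure D1:**
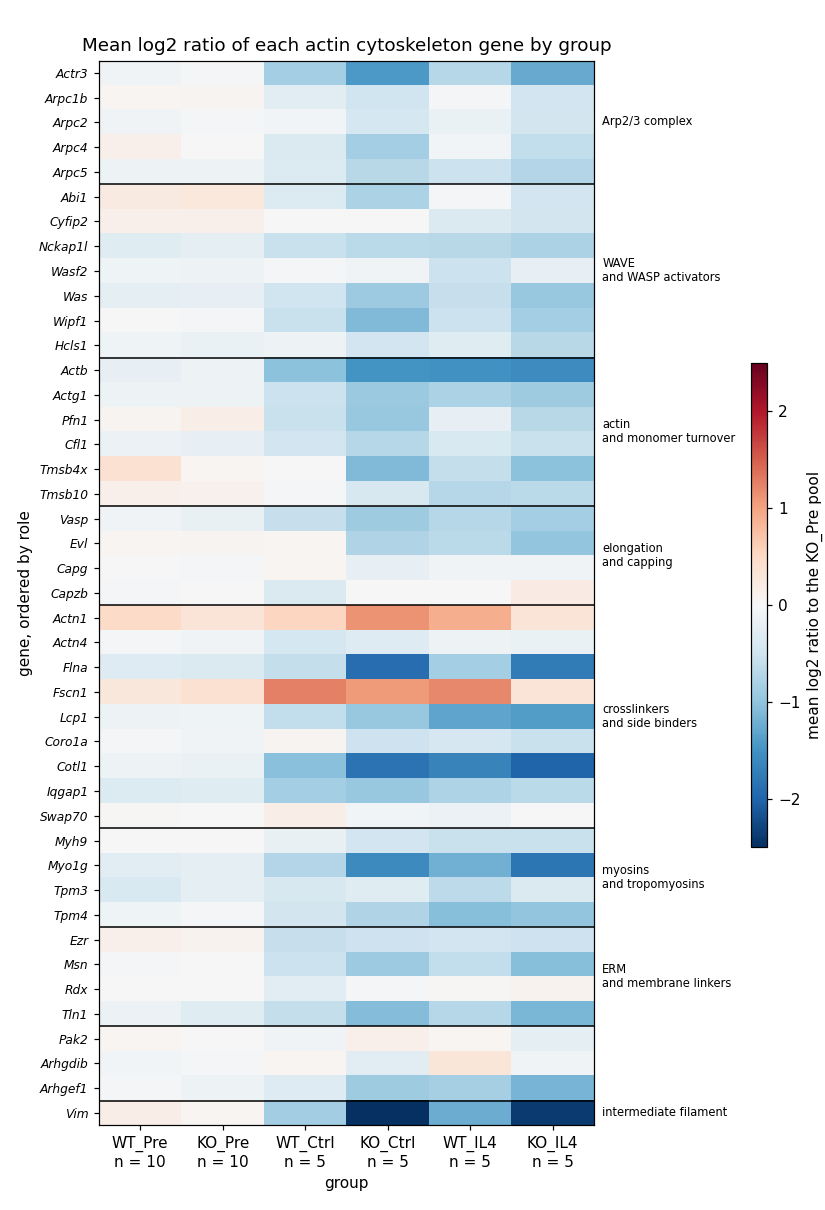
Mean log2 ratio to the KO_Pre pool (colour) of the 43 measured members (rows, by role) in the 6 groups (columns, n = 10 or 5 arrays). The groups before culture lie near 0, and KO_Ctrl reaches -2.57 for Vim against -0.86 in WT_Ctrl.

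Before culture, knockout and wild-type B cells did not differ detectably in any member. Of the 43, 0 were called higher and 0 lower by limma at an adjusted p under 0.05, every adjusted p was 1, and 0 had an unadjusted p under 0.05. Over all genes 0% were called higher and 0% lower. In 0 members did the groups lie apart, against 0.00457% of all genes with knockout arrays wholly below and 0% wholly above. The median log2 difference of the members was 0.00, against 0.02 for all genes, and the 95% confidence intervals lay between -0.68 and 0.51. The deleted gene Dock10 was not called in this fit either. The fit had no block, although arrays of equal number deviated together (correlation 0.225 to 0.543). With a replicate block 0 members were called, while the genes of unadjusted p under 0.05 went from 892 to 1620 over all genes.

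Tmsb4x encodes thymosin beta 4, the main store of actin monomers. Its log2 ratio in WT_Pre was -0.44 at the lowest, 0.41 at the median and 0.90 at the highest, and in KO_Pre -0.57 at the lowest, 0.09 at the median and 0.55 at the highest. The groups overlap over most of their range and the log2 difference, the largest among the members, was -0.33 (SE 0.17, adjusted p = 1). Tln1 (talin, which links integrins to actin) gave log2 ratios of -0.36 at the lowest, -0.17 at the median and 0.13 at the highest in WT_Pre, and of -0.67 at the lowest, -0.25 at the median and -0.04 at the highest in KO_Pre. Most arrays of the 2 groups share 1 range, with a log2 difference of -0.15 (SE 0.09, adjusted p = 1). Tpm3, a tropomyosin that lies along filaments, was -0.65 at the lowest, -0.36 at the median and -0.08 at the highest in WT_Pre and -0.68 at the lowest, -0.19 at the median and 0.13 at the highest in KO_Pre. Its log2 difference was 0.14 (SE 0.10, adjusted p = 1), again with overlapping groups. The log2 differences furthest from 0 in the other roles were -0.13 for Arpc4 (Arp2/3 complex), 0.06 for Nckap1l (WAVE complex), -0.08 for Vasp (filament elongation), -0.15 for Actn1 (crosslinker) and -0.11 for Arhgef1 (an exchange factor for RhoA), each with overlapping groups. Single arrays moved some of these values: Vasp was at -0.21 without WT_Pre 10 and at 0.02 without KO_Pre 3, Arhgef1 at -0.06 without WT_Pre 6, Actn1 at -0.24 without KO_Pre 5 and -0.10 without KO_Pre 6, Arpc4 at -0.09 without WT_Pre 9, and Nckap1l at 0.04 without KO_Pre 6 and 0.10 without KO_Pre 10.

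After 18 h with nothing added, knockout cells held less RNA of many actin genes than wild-type cells. Of the 43 members 23 were called lower, where 8.43% of all genes were, and 1 (Actn1) higher, where 6.87% were. In 17 members every knockout array lay below every wild-type array, as for 6.43% of all genes, and in 0 wholly above, as for 3.97%. The median log2 difference of the members was -0.35, against 0.05 over all genes. Fewer cells of a type and less RNA per cell cannot be told apart in these bulk samples. The lower calls included 4 of 5 Arp2/3 genes, 4 of 7 WAVE and WASP activators, 3 of 6 actin and monomer genes, 1 of 4 elongation and capping genes, 4 of 9 crosslinkers, 2 of 4 myosins and tropomyosins, 2 of 4 membrane linkers, and Vim.

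In the Arp2/3 complex, Actr3 (Arp3, one of the actin-like subunits that seed the branch) had log2 ratios of -1.25, -0.73, -0.83, -0.74 and -0.68 in WT_Ctrl mice 6 to 10 and of -1.61, -1.56, -1.26, -1.46 and -1.31 in KO_Ctrl. Every knockout array was lower than every wild-type array, mouse 6 being the lowest of each genotype, and the log2 difference was -0.59 (SE 0.12, adjusted p = 0.000668). Arpc4 (-0.48, adjusted p = 0.0024), Arpc2 (-0.36, adjusted p = 0.000809) and Arpc5 (-0.35, adjusted p = 0.0146), which encode other subunits of the complex, were also called lower, with groups that did not overlap. Arpc5 lost its call without WT_Ctrl 7 (adjusted p = 0.0503). Arpc1b, the subunit prevalent in blood cells, had a log2 difference of -0.21 (adjusted p = 0.213).

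Among the activators, Wipf1 (WIP, the partner that stabilises WASP) had log2 ratios of -0.81, -0.33, -0.64, -0.47 and -0.54 in WT_Ctrl and -0.92, -1.05, -1.10, -1.16 and -1.28 in KO_Ctrl. The lowest wild-type array, that of mouse 6, lay above the highest knockout array, and the log2 difference was -0.55 (SE 0.17, adjusted p = 0.0257). That call was lost when any 1 of WT_Ctrl 7 and 9 and KO_Ctrl 9 and 10 was left out, with an adjusted p of up to 0.0697. Was, the haematopoietic WASP, differed by -0.41 (adjusted p = 0.00207) with no overlap, Abi1 (WAVE complex) by -0.45 (adjusted p = 0.00889) and Hcls1 (HS1, which steadies Arp2/3 branches) by -0.37 (adjusted p = 0.0141). The other WAVE members Cyfip2, Nckap1l and Wasf2 had log2 differences of 0.03, -0.11 and -0.03 and were not called.

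In the monomer group, Tmsb4x was -0.38, 0.29, -0.29, 0.08 and 0.27 in WT_Ctrl and -0.99, -1.56, -0.76, -0.95 and -1.25 in KO_Ctrl, as log2 ratios. The highest knockout array lay below the lowest wild-type array, that of mouse 6, and the log2 difference was -1.10 (SE 0.18, adjusted p = 0.000102), a 2.14-fold lower level. Actb (beta-actin) differed by -0.46 (adjusted p = 0.00329) with no overlap and Tmsb10, a second thymosin, by -0.38 (adjusted p = 0.0101). Actg1, Pfn1 (profilin) and Cfl1 (cofilin, which severs filaments) had log2 differences of -0.38, -0.40 and -0.24, with adjusted p of 0.117, 0.0551 and 0.307.

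Evl, the Ena/VASP protein of lymphocytes, had log2 ratios of -0.28, 0.18, 0.14, 0.10 and 0.11 in WT_Ctrl and -0.72, -0.73, -0.59, -0.80 and -0.91 in KO_Ctrl. All knockout arrays lay below the lowest wild-type array, again that of mouse 6, and its difference had the smallest adjusted p of the members, -0.80 (SE 0.09, adjusted p = 5.86e-07). Its relatives in the role, Vasp (-0.30) and the cappers Capg (-0.26) and Capzb (0.37), were not called. The 2 Capzb probes disagreed, with log2 differences of 0.81 and -0.08.

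Flna encodes filamin A, which joins filaments into a mesh and anchors membrane receptors. It gave log2 ratios of -1.16, -0.33, -0.70, -0.48 and -0.35 in WT_Ctrl and -1.78, -2.06, -1.52, -2.01 and -2.16 in KO_Ctrl. No knockout array reached the lowest wild-type array, and the log2 difference was -1.30 (SE 0.15, adjusted p = 1.48e-06), a 2.47-fold lower level. Cotl1 (coactosin, a filament side binder) differed by -0.79 (adjusted p = 8.22e-06), Coro1a (coronin 1A) by -0.59 (adjusted p = 0.00523) and Lcp1 (L-plastin, a bundler) by -0.34 (adjusted p = 0.0258). Coro1a was at 0.12 in KO_Ctrl 8, within the WT_Ctrl range of -0.15 to 0.31, and at -0.81 to -0.57 in the other knockout arrays. Actn1 (alpha-actinin 1) went the other way, with log2 ratios of 0.88, 0.37, 0.47, 0.62 and 0.34 in WT_Ctrl and 0.97, 1.51, 0.80, 0.99 and 1.36 in KO_Ctrl. Wild-type mouse 6 overlaps the knockout arrays and the other 4 wild-type arrays lie below them, with a log2 difference of 0.59 (SE 0.20, adjusted p = 0.0437). The call for Actn1 was lost when any 1 of WT_Ctrl 7, 8, 9 and 10 and KO_Ctrl 7, 9 and 10 was left out (adjusted p of up to 0.128). Lcp1 lost its call without WT_Ctrl 7, 8 and 9 and KO_Ctrl 8 and 10 in turn (adjusted p of up to 0.074). Actn4, Fscn1, Iqgap1 and Swap70 were not called, with log2 differences of 0.11, -0.20, -0.10 and -0.24.

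Myo1g, a membrane-bound class I myosin of blood cells, had log2 ratios of -1.26, -0.35, -0.74, -0.73 and -0.58 in WT_Ctrl and -1.69, -1.68, -1.61, -1.59 and -1.43 in KO_Ctrl. The knockout arrays lie together below all wild-type arrays, with a log2 difference of -0.87 (SE 0.12, adjusted p = 1.37e-05). Tpm4 differed by -0.29 (adjusted p = 0.0374), a call lost when any 1 of 8 of the 10 arrays was left out (all but WT_Ctrl 6 and KO_Ctrl 8, adjusted p of up to 0.1), while Myh9 (non-muscle myosin heavy chain) at -0.28 and Tpm3 at 0.10 were not called. The 2 Myh9 probes disagreed, with log2 differences of -0.71 (adjusted p = 2.68e-05 among probes) and 0.14 (adjusted p = 0.664). Among the membrane linkers, Tln1 gave log2 ratios of -0.68, -0.63, -0.71, -0.46 and -0.52 in WT_Ctrl and -0.90, -1.04, -1.33, -1.00 and -1.10 in KO_Ctrl. Its groups did not overlap and its log2 difference was -0.48 (SE 0.11, adjusted p = 0.00413). Msn (moesin) differed by -0.36 (adjusted p = 0.0186), lost without WT_Ctrl 9 and 10 and KO_Ctrl 10 in turn (up to 0.0606), whereas Ezr (ezrin) and Rdx (radixin) had log2 differences of 0.05 and 0.25 and were not called.

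Arhgef1 gave log2 ratios of -0.66, -0.15, -0.46, -0.13 and -0.20 in WT_Ctrl and -1.00, -0.72, -0.79, -0.86 and -1.04 in KO_Ctrl. The highest knockout array lay just below wild-type mouse 6, and the log2 difference was -0.56 (SE 0.14, adjusted p = 0.00798). Arhgdib differed by -0.34 (adjusted p = 0.00975), and Pak2, a kinase activated by Cdc42 and Rac, by 0.23 (adjusted p = 0.583). Of the Arhgdib probes, that at -0.51 (adjusted p = 0.000468 among probes) was called lower and that at -0.17 (adjusted p = 0.277) was not. Vim (vimentin, the intermediate filament of white blood cells) had log2 ratios of -1.66, -0.21, -0.67, -0.87 and -0.89 in WT_Ctrl and -2.55, -2.60, -2.36, -2.92 and -2.42 in KO_Ctrl. Every knockout array lay below wild-type mouse 6, the lowest of its group, and the log2 difference of -1.71 (SE 0.25, adjusted p = 2.19e-05), a 3.27-fold lower level, was the largest of the members.

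**Figure D2:**
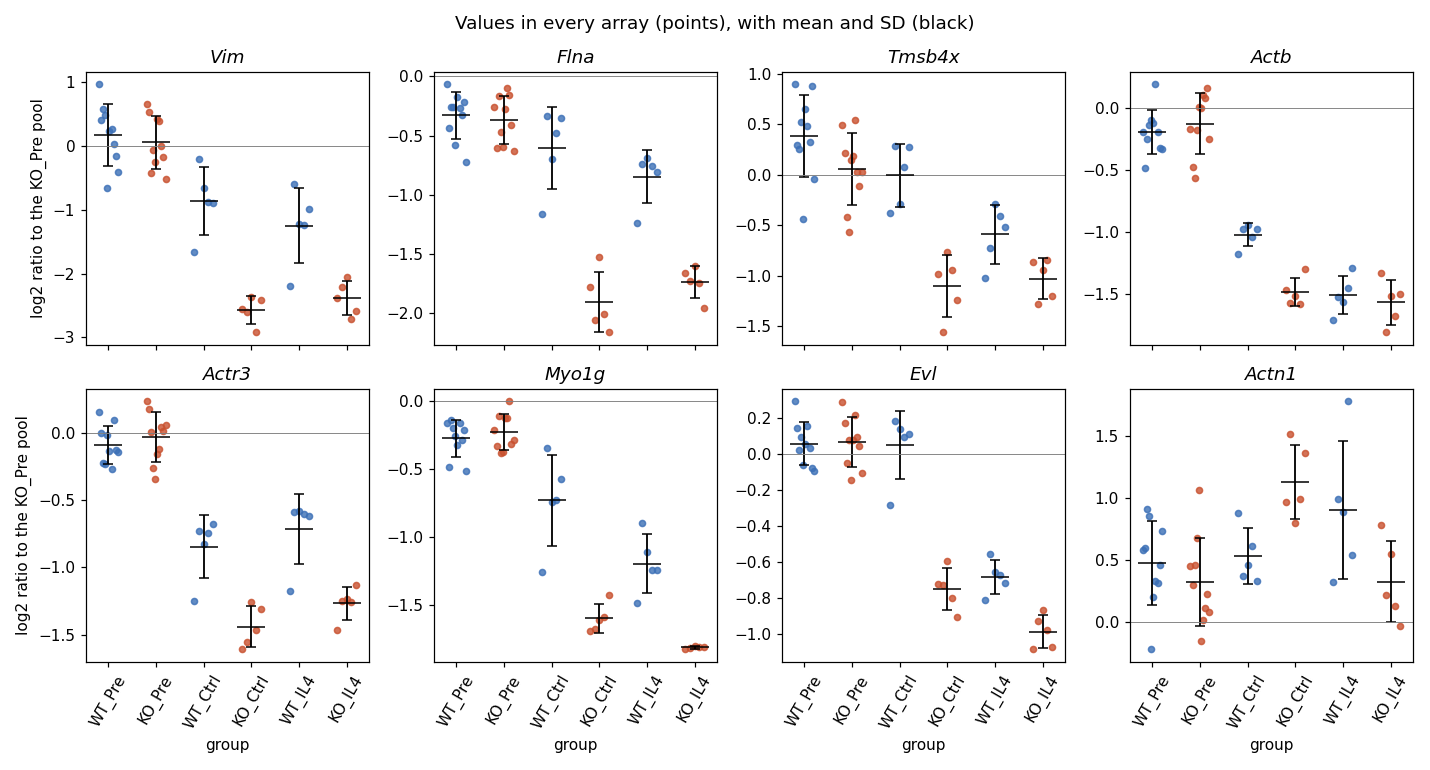
Log2 ratio to the KO_Pre pool (y axis) in every array (points) of the 6 groups (x axis) for 8 members, with the mean and SD in black. Knockout arrays cultured with nothing lie below the wild-type ones for Vim, Flna, Tmsb4x, Actb, Actr3, Myo1g and Evl, and mostly above them for Actn1.

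The size of this difference depends on the scaling. After quantile normalization 6 of the 23 lower calls remained (Tmsb4x, Evl, Flna, Coro1a, Myo1g and Vim), and the share of all called genes that were higher in knockout cells went from 44.9% to 19.8%. A fit of the 10 arrays of these groups alone called 14 members lower, and 25 were called lower and 2 higher without wild-type mouse 6. Markers of B cells moved with the members: 7 of 9 were called lower, with an array mean of log2 ratios of -1.00 to -0.41 in WT_Ctrl and -1.44 to -1.14 in KO_Ctrl. Of the macrophage and monocyte markers 3 of 15 were called lower (-0.75 to -0.14 in WT_Ctrl and -1.05 to -0.50 in KO_Ctrl), and of the platelet markers 2 of 8 higher (-2.13 to -0.34 and -1.41 to 0.14). Of the NK cell markers 2 of 10 were called higher, with all 10 differences above 0 (-2.01 to -1.12 and -1.40 to -0.39), and of the dendritic cell markers 2 of 11 higher (-1.41 to -1.21 and -1.26 to -0.88). Their part in the result was not tested.

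With IL-4 in the medium, knockout cells were again lower in many members. Of the 43, 18 were called lower, where 9.85% of all genes were, and 0 higher, where 8.57% were (2 members above 0 had an unadjusted p under 0.05, Wasf2 and Tpm3). In 13 members the knockout arrays lay wholly below the wild-type arrays, as for 11.6% of all genes, and in 0 wholly above, as for 6.32%. The median log2 difference was -0.27, against -0.08 for all genes, and it was -0.03 after quantile normalization. The dark corner ratios of these groups did not overlap either, at -0.77 to -0.21 in WT_IL4 and -1.49 to -0.83 in KO_IL4. Beyond the covariate fit counted at the end, their part in the result was not tested. The lower calls were 4 Arp2/3 genes, 3 activators (Abi1, Was and Hcls1), Pfn1, Evl, 4 crosslinkers (Actn1, Flna, Fscn1 and Cotl1), Myo1g, Msn and Tln1, Arhgdib, and Vim.

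Vim had log2 ratios of -2.20, -0.59, -1.23, -1.23 and -0.99 in WT_IL4 and -2.38, -2.21, -2.06, -2.70 and -2.59 in KO_IL4. Wild-type mouse 6 lies within the knockout range and the other 4 wild-type arrays above it, and the log2 difference was -1.14 (SE 0.25, adjusted p = 0.00252). Flna gave -1.24, -0.74, -0.69, -0.76 and -0.81 in WT_IL4 and -1.66, -1.73, -1.60, -1.75 and -1.96 in KO_IL4. No knockout array overlapped wild-type ones, and the log2 difference was -0.89 (SE 0.15, adjusted p = 0.000399). Fscn1 (fascin, a bundler of finger-like protrusions) was 1.00, 1.22, 1.91, 0.72 and 1.15 in WT_IL4 and 0.26, 0.12, 0.37, 0.38 and 0.48 in KO_IL4, as log2 ratios. The highest knockout array lay below the lowest wild-type one, with a log2 difference of -0.88 (SE 0.18, adjusted p = 0.00139). Fascin is also a marker of dendritic cells, and of the 11 dendritic cell markers it was the 1 called lower, while 0 were called higher. The list's array means ran from -1.28 to -0.85 in WT_IL4 and from -1.24 to -0.96 in KO_IL4.

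Actr3 gave log2 ratios of -1.18, -0.59, -0.58, -0.60 and -0.62 in WT_IL4 and -1.47, -1.25, -1.23, -1.26 and -1.13 in KO_IL4. Wild-type mouse 6 again overlapped the knockout arrays, which lay below the other 4 wild-type arrays, and the log2 difference was -0.55 (SE 0.12, adjusted p = 0.00198). Arpc1b differed by -0.42 (adjusted p = 0.0086), Arpc2 by -0.27 (adjusted p = 0.00934) and Arpc4 by -0.54 (adjusted p = 0.00127), each without overlap, and Arpc5 by -0.19 (adjusted p = 0.174). Abi1 gave -0.17, 0.20, 0.04, -0.14 and -0.05 in WT_IL4 and -0.36, -0.34, -0.42, -0.76 and -0.53 in KO_IL4. The groups did not overlap and the log2 difference was -0.46 (SE 0.12, adjusted p = 0.00789). Pfn1 gave -0.37, -0.14, -0.13, -0.27 and -0.11 in WT_IL4 and -0.63, -0.58, -0.32, -1.09 and -0.84 in KO_IL4. Knockout mouse 8 lay above wild-type mouse 6, the other knockout arrays lay below all wild-type ones, and the log2 difference was -0.49 (SE 0.14, adjusted p = 0.0169), with an adjusted p of 0.0705 without KO_IL4 9.

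Evl had log2 ratios of -0.81, -0.56, -0.66, -0.67 and -0.72 in WT_IL4 and -1.09, -0.93, -0.87, -0.98 and -1.07 in KO_IL4. The groups are next to each other without overlap, and the log2 difference was -0.30 (SE 0.09, adjusted p = 0.0172), with an adjusted p of 0.0511 without WT_IL4 7. Myo1g gave -1.49, -0.90, -1.11, -1.24 and -1.24 in WT_IL4 and -1.83, -1.81, -1.80, -1.81 and -1.81 in KO_IL4. Its 5 knockout arrays were nearly equal and below every wild-type array, and the log2 difference was -0.62 (SE 0.12, adjusted p = 0.00122). Msn gave -0.95, -0.42, -0.58, -0.62 and -0.53 in WT_IL4 and -1.11, -0.98, -1.11, -1.06 and -1.09 in KO_IL4. Only wild-type mouse 6 came near the knockout arrays, without overlap, and the log2 difference was -0.45 (SE 0.11, adjusted p = 0.00384). Arhgdib gave 0.25, 0.15, 0.37, 0.41 and 0.37 in WT_IL4 and -0.04, -0.04, 0.00, -0.10 and -0.29 in KO_IL4. No knockout array reached the lowest wild-type array, with a log2 difference of -0.40 (SE 0.09, adjusted p = 0.00326). The Arhgdib probes gave -0.64 (adjusted p = 0.000121 among probes) and -0.16 (adjusted p = 0.245), so only the former was called. Actn1 was now lower in knockout cells, by a log2 difference of -0.57 (SE 0.20, adjusted p = 0.0456), with overlapping groups. The Actn1 call was lost when any 1 of WT_IL4 7, 8 and 9 and KO_IL4 7, 9 and 10 was left out (adjusted p of up to 0.161), and the difference without WT_IL4 9 was -0.35. Cotl1 differed by -0.33 (adjusted p = 0.03), a call lost without any 1 of 7 of the 10 arrays (WT_IL4 7, 8, 9 and 10 and KO_IL4 6, 9 and 10, up to 0.0842).

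Some members called lower without IL-4 were not called with it, but the change of the difference itself passed the test for Evl and Actn1 alone among the 43. Actb differed by -0.06 (adjusted p = 0.738), Tmsb10 by 0.04 (adjusted p = 0.818), Tmsb4x by -0.44 (adjusted p = 0.09), Coro1a by -0.15 (adjusted p = 0.489) and Lcp1 by -0.07 (adjusted p = 0.666). The 2 Tmsb4x probes disagreed, with log2 differences of -0.80 (adjusted p = 9.8e-06 among probes), which is called lower, and -0.08 (adjusted p = 0.891). So did those of Myh9, at -0.43 (adjusted p = 0.00522) and 0.44 (adjusted p = 0.084). After quantile normalization 3 of the 18 lower calls remained (Actn1, Fscn1 and Arhgdib) and Tpm3 was called higher, with the share of higher genes among all calls going from 46.5% to 60.2%. Of the 9 B cell markers 3 were called lower and 1 higher (array means -1.33 to -0.96 in WT_IL4 and -1.41 to -1.13 in KO_IL4). Of the 8 plasma cell markers 4 were called lower (-0.62 to -0.18 and -0.95 to -0.74), and of the 9 T cell markers 4 lower and 2 higher (-0.08 to 1.61 and 0.03 to 0.60). Their part in the result was not tested.

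**Figure D3:**
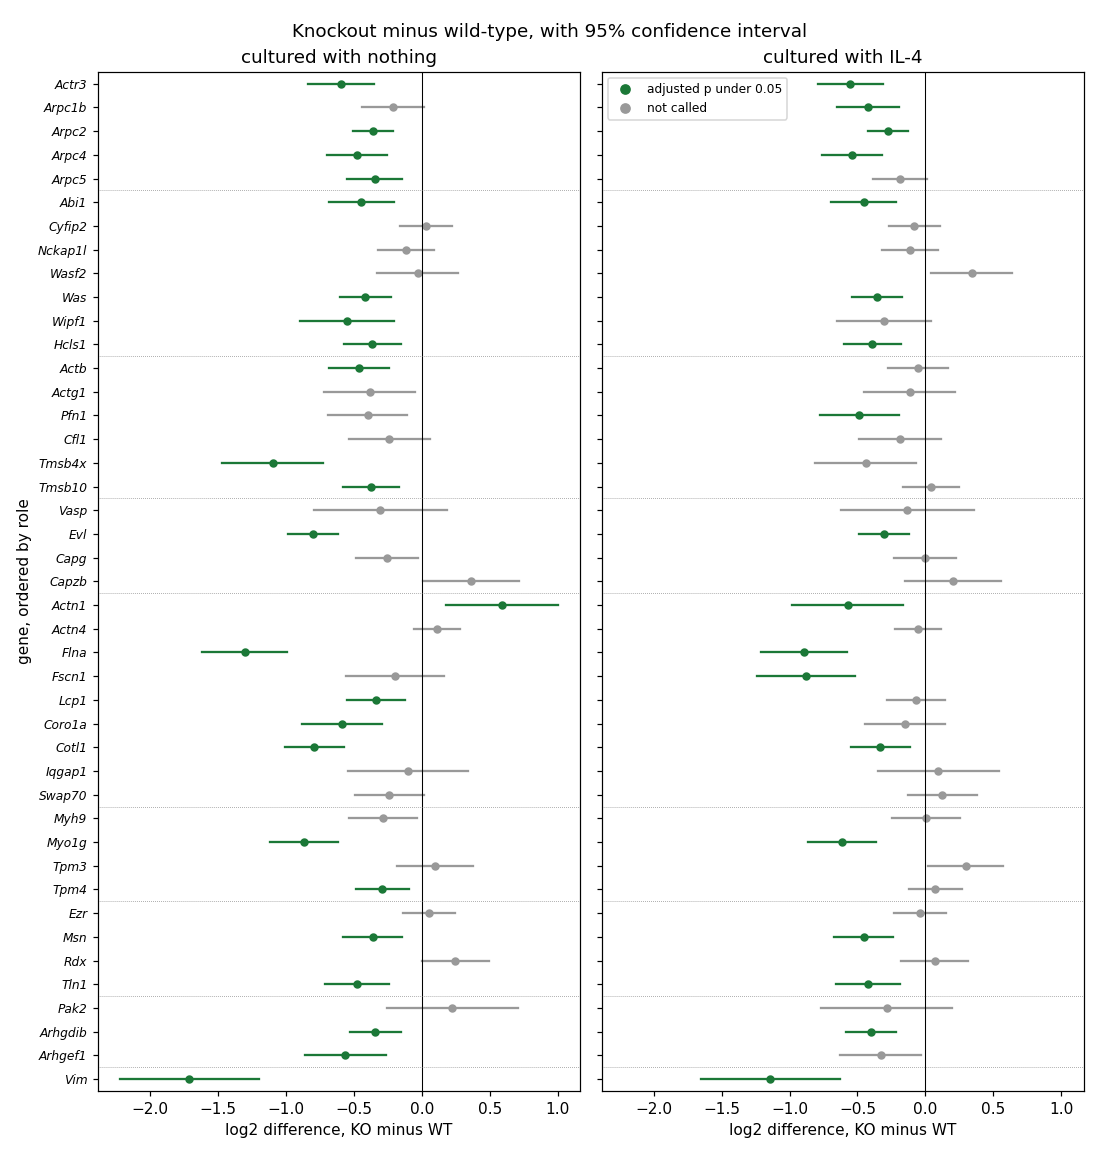
Log2 difference between knockout and wild-type cells (x axis) with its 95% confidence interval for the 43 members (y axis, by role), cultured with nothing (left) and with IL-4 (right). Green marks an adjusted p under 0.05: 24 members at left and 18 at right, with Actn1 above 0 at left and below 0 at right.

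In wild-type cells IL-4 lowered more actin genes than it raised. Between WT_IL4 and WT_Ctrl, 13 members were called lower, where 11.4% of all genes were, and 4 higher (Abi1, Actn4, Arpc4 and Arhgdib), where 15.5% were. The arrays did not overlap for 8 members below, as for 8.52% of all genes, and for 3 above, as for 17%. The median log2 difference was -0.14 for the members, or -0.23 after quantile normalization, and 0.12 over all genes. Centred on each array's median, 13 members were called lower and 3 higher. The dark corner ratios did not overlap between these groups, at -1.29 to -0.82 in WT_Ctrl and -0.77 to -0.21 in WT_IL4. Beyond the covariate fit counted at the end, the part of these ratios in the result was not tested. Of the 9 B cell markers 3 were called lower and 0 higher (array means -1.00 to -0.41 in WT_Ctrl and -1.33 to -0.96 in WT_IL4). Macrophage and monocyte markers were called lower in 5 of 15 and higher in 1 (-0.75 to -0.14 and -1.25 to -0.67), and NK cell markers higher in 4 of 10 and lower in 1 (-2.01 to -1.12 and -1.07 to -0.40). Their part in the result was not tested.

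Evl had the smallest adjusted p, with a log2 difference of -0.73 (SE 0.09, adjusted p = 6.99e-07). Its wild-type values above lie at -0.28 to 0.18 without IL-4 and at -0.81 to -0.56 with it, so the groups did not overlap. Lcp1 gave -0.75, -0.57, -0.49, -0.61 and -0.64 in WT_Ctrl and -1.51, -1.24, -1.29, -1.29 and -1.27 in WT_IL4. Mouse 6 was the lowest in each group, every treated array lay below every untreated one, and the log2 difference was -0.71 (SE 0.10, adjusted p = 1.29e-05). Tmsb10 gave -0.26, 0.20, 0.05, -0.04 and -0.09 in WT_Ctrl and -0.79, -0.61, -0.72, -0.74 and -0.71 in WT_IL4. The groups were far apart, with a log2 difference of -0.68 (SE 0.10, adjusted p = 1.33e-05). Tpm4 gave -0.58, -0.32, -0.48, -0.45 and -0.45 in WT_Ctrl and -1.16, -1.12, -1.02, -1.01 and -1.01 in WT_IL4. Every treated array lay below every untreated one, with a log2 difference of -0.61 (SE 0.10, adjusted p = 3.23e-05).

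Wasf2 (WAVE2) gave log2 ratios of 0.24, -0.32, -0.11, -0.02 and -0.06 in WT_Ctrl and -0.56, -0.84, -0.61, -0.30 and -0.38 in WT_IL4. Mouse 7 without IL-4 lay beside the highest treated arrays, so the groups overlapped, and the log2 difference was -0.48 (SE 0.15, adjusted p = 0.0151). Arhgef1 gave -1.16, -0.76, -0.65, -0.74 and -0.89 in WT_IL4, where mouse 6 without IL-4 lies within the treated arrays, and differed by -0.52 (SE 0.14, adjusted p = 0.0092). Its probes lay furthest apart of the members here. They gave -0.82 (adjusted p = 1.55e-05 among probes), called lower, and -0.22 (adjusted p = 0.497), not called. The other lower calls were Cyfip2 (-0.35, adjusted p = 0.0057), Actb (-0.48, adjusted p = 0.00133), Tmsb4x (-0.59, adjusted p = 0.0177), Coro1a (-0.47, adjusted p = 0.0161), Cotl1 (-0.61, adjusted p = 0.000106), Myh9 (-0.37, adjusted p = 0.0252) and Myo1g (-0.46, adjusted p = 0.00563). Of these, Tmsb4x lost its call without WT_Ctrl 7 and 10 and WT_IL4 6 in turn (up to 0.0619), Coro1a without WT_Ctrl 7 (0.0523) and Myh9 without WT_Ctrl 8, 9 and 10 and WT_IL4 6 (up to 0.0695).

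Actn4 (alpha-actinin 4) gave log2 ratios of -0.43, -0.49, -0.36, -0.43 and -0.50 in WT_Ctrl and -0.11, -0.06, -0.07, -0.19 and -0.17 in WT_IL4. Every treated array lay above every untreated one, with a log2 difference of 0.32 (SE 0.08, adjusted p = 0.00456). Abi1 rose from -0.34, -0.32, -0.40, -0.27 and -0.41 to the treated values given above, without overlap, by a log2 difference of 0.32 (SE 0.12, adjusted p = 0.042). Arpc4 gave -0.70, -0.18, -0.35, -0.36 and -0.23 in WT_Ctrl and -0.41, -0.10, 0.16, -0.01 and 0.01 in WT_IL4. Treated mouse 6 lay below 4 untreated arrays, and the log2 difference was 0.29 (SE 0.11, adjusted p = 0.0429). Arhgdib differed by 0.25 (SE 0.09, adjusted p = 0.0409). Its probes gave 0.355 (adjusted p = 0.00787 among probes), called higher, and 0.148 (adjusted p = 0.273), not called. Radixin (Rdx) was not called, at 0.30 (SE 0.12, adjusted p = 0.0643), with 0.10, -0.56, -0.29, -0.13 and -0.48 in WT_Ctrl and -0.28, 0.10, -0.07, 0.17 and 0.21 in WT_IL4. Mouse 6 was the highest untreated and the lowest treated array of Rdx. Of the higher calls, Abi1 was lost when any 1 of 8 of the 10 arrays was left out (all but WT_IL4 6 and 9, up to 0.11), Arpc4 for WT_Ctrl 6, 8 and 9 and WT_IL4 7, 8, 9 and 10 (up to 0.144) and Arhgdib for WT_Ctrl 6, 7 and 10 and WT_IL4 8, 9 and 10 (up to 0.104). The higher count fell to 1 without WT_IL4 8 or 10, and to 2 without WT_IL4 7 or 9 or any 1 of the WT_Ctrl arrays. With the mouse as a block, since cells of 1 mouse are paired here, Abi1 was not called (0.32, adjusted p = 0.0645), while Pfn1 (0.34, adjusted p = 0.0475) and Swap70 (-0.31, adjusted p = 0.0475) were. After quantile normalization 0 members were called higher and 13 lower, with a share of higher genes among all calls of 42.9% in place of 57.5%.

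In knockout cells IL-4 lowered 4 members, Actn1, Fscn1, Cyfip2 and Lcp1, where 4.39% of all genes were called lower, and raised 0, where 4% were called higher (3 members above 0, Abi1, Arpc4 and Arhgdib, had an unadjusted p under 0.05). The arrays did not overlap for 6 members below, as for 4.2% of all genes, and for 0 above, as for 5.02%. The median log2 difference was -0.03, against 0.02 for all genes. Among the markers, 3 of 11 of dendritic cells were called lower and 1 higher (array means -1.26 to -0.88 in KO_Ctrl and -1.24 to -0.96 in KO_IL4). Of the 11, Fscn1 is also a member. Macrophage and monocyte markers were called lower in 3 of 15 and higher in 1 (-1.05 to -0.50 and -1.39 to -0.82), and plasma cell markers lower in 3 of 8 and higher in 1 (-0.40 to -0.11 and -0.95 to -0.74). Of the 9 B cell markers 1 was called lower and 2 higher. Their part in the result was not tested.

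Actn1 in KO_Ctrl, given above, ran from 0.80 to 1.51, and in KO_IL4 its log2 ratios were 0.78, 0.22, 0.55, 0.13 and -0.03. All 5 mice were lower with IL-4, the groups did not overlap, and the log2 difference was -0.80 (SE 0.20, adjusted p = 0.0115). Fscn1 gave 0.97, 1.14, 0.99, 1.11 and 1.11 in KO_Ctrl against the KO_IL4 values given above, 0.12 to 0.48. Every treated array lay below every untreated one, and the log2 difference was -0.74 (SE 0.18, adjusted p = 0.00702). Cyfip2, a WAVE complex subunit, gave 0.12, 0.14, 0.05, -0.04 and -0.19 in KO_Ctrl and -0.50, -0.39, -0.39, -0.53 and -0.45 in KO_IL4. These groups were apart as well, with a log2 difference of -0.47 (SE 0.09, adjusted p = 0.00139). Lcp1 gave -0.85, -0.83, -1.03, -0.94 and -1.09 in KO_Ctrl and -1.32, -1.37, -1.31, -1.46 and -1.49 in KO_IL4, again without overlap, and its log2 difference was -0.44 (SE 0.10, adjusted p = 0.00675). All 4 calls held whichever array was left out, 1 member was called higher without KO_Ctrl 6 or KO_IL4 9, and none of the 4 held after quantile normalization.

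The members furthest from 0 in the other roles were not called. Tmsb10 gave -0.53, -0.36, -0.04, -0.56 and -0.53 in KO_Ctrl and -0.64, -0.71, -0.73, -0.58 and -0.71 in KO_IL4. Its treated arrays lay below all untreated ones, and the log2 difference was -0.27 (SE 0.10, adjusted p = 0.1). Evl differed by -0.24 (SE 0.09, adjusted p = 0.1) and Tpm4 by -0.24 (SE 0.10, adjusted p = 0.121), knockout mouse 8 without IL-4 standing apart for Tpm4 at -0.28. Without that array Tpm4 differed by -0.13 (adjusted p = 0.336) and Tmsb10 by -0.18 (adjusted p = 0.264). Arpc4 differed by 0.23 (adjusted p = 0.202) and Msn by -0.17 (adjusted p = 0.375). Pak2 gave 0.07, 0.27, 0.08, 0.06 and 0.16 in KO_Ctrl and -1.85, 0.24, 0.18, 0.08 and 0.14 in KO_IL4. The array of mouse 6 with IL-4 stands alone, and the log2 difference was -0.37 (SE 0.23, adjusted p = 0.378) with it and 0.03 (adjusted p = 0.898) without it.

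**Figure D4:**
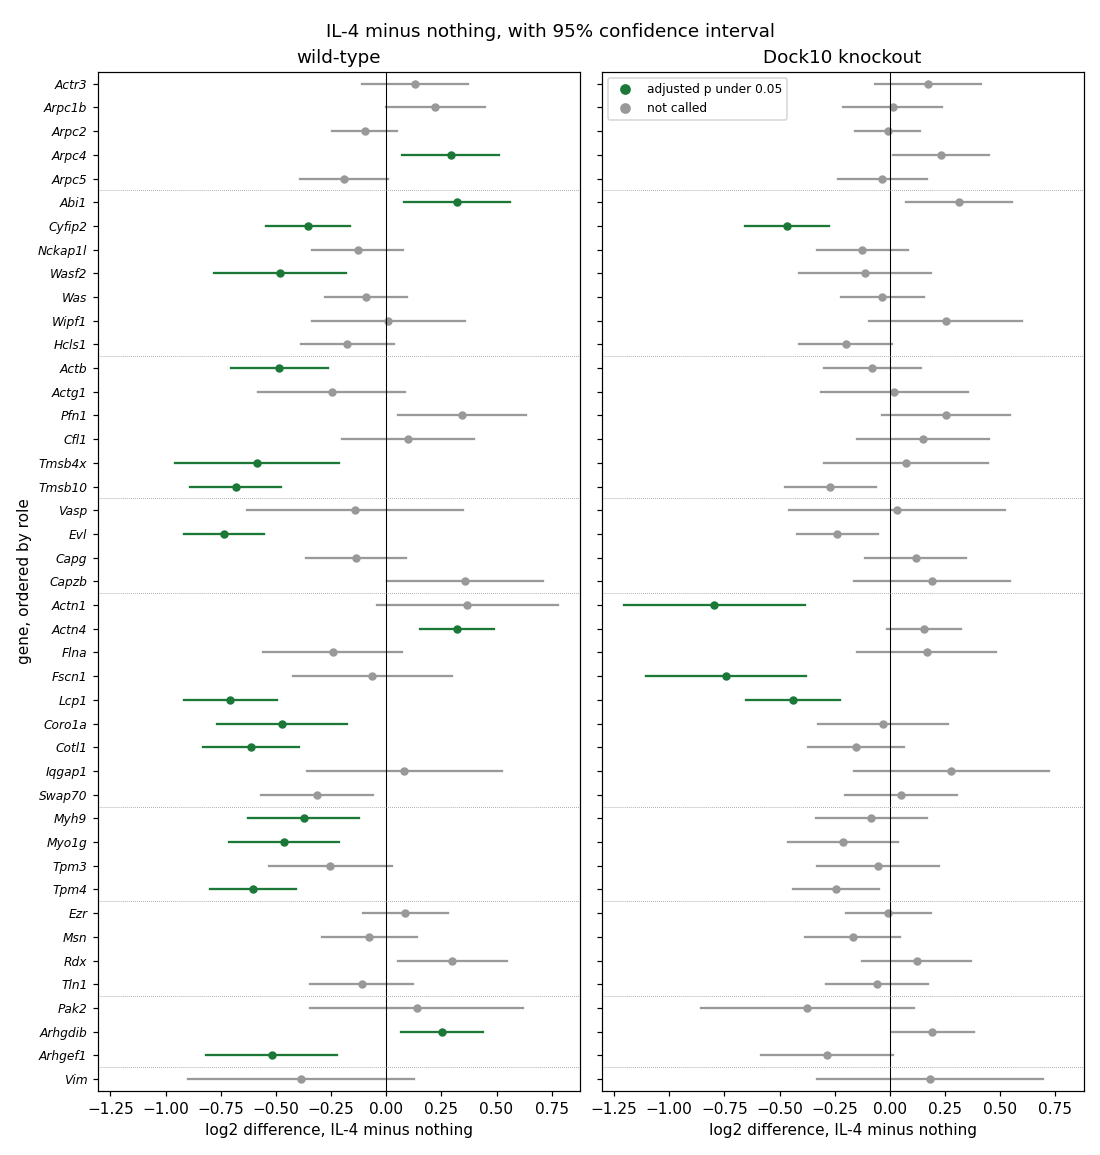
Log2 difference between cells cultured with IL-4 and with nothing (x axis) with its 95% confidence interval for the 43 members (y axis, by role), in wild-type (left) and Dock10 knockout cells (right). Green marks an adjusted p under 0.05, for 17 members at left and 4 at right.

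The 2 IL-4 effects differed by test for 2 members. The difference of effects, knockout minus wild-type, was called lower for Actn1, where 0.585% of all genes were, and higher for Evl, where 0.608% were. For Actn1 the wild-type effect of IL-4 was 0.37 (adjusted p = 0.17), the knockout effect -0.80, and the difference was -1.17 (SE 0.28, adjusted p = 0.0399). Its log2 ratios in WT_IL4 were 0.32, 0.99, 0.88, 1.78 and 0.54. Wild-type mice 7, 8, 9 and 10 were higher with IL-4 than without and mouse 6 was lower, whereas all 5 knockout mice were lower. For Evl the effects were -0.73 and -0.24, both downward, and the difference was 0.50 (SE 0.12, adjusted p = 0.0476). The other 41 members were not called, 8 of them at an unadjusted p under 0.05, and the member median was 0.16 against -0.09 for all genes.

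Both calls depended on single arrays. Evl was lost when any 1 of 17 of the 20 arrays was left out, all but WT_Ctrl 6, WT_IL4 7 and KO_Ctrl 8, with an adjusted p of up to 0.09 and a difference of 0.46 to 0.58. Actn1 was lost for 13 of the 20 (WT_Ctrl 7, 8, 9 and 10, WT_IL4 7, 8 and 9, KO_Ctrl 7, 9 and 10 and KO_IL4 7, 9 and 10), with an adjusted p of up to 0.0839 and a difference of -1.31 to -0.95. The higher count became 5 without KO_Ctrl 8 and 2 without WT_Ctrl 6. With the mouse as a block Actn1 had -1.17, adjusted p = 0.0583. After quantile normalization 0 members were called, with 181 calls over all genes, 84% of them higher against 51% of 261.

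**Figure D5:**
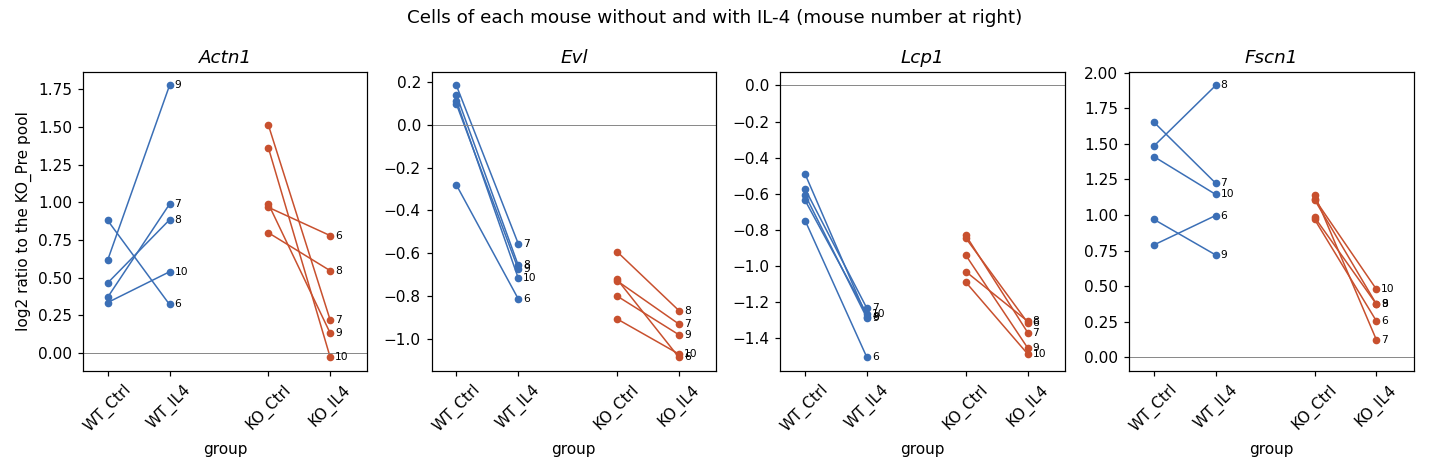
Log2 ratio to the KO_Pre pool (y axis) of cells of each mouse without and with IL-4 (lines, mouse number at right) for 4 members, wild-type in blue and knockout in orange. Actn1 is higher with IL-4 in 4 of 5 wild-type mice and lower in 5 of 5 knockout mice, and Evl is lower in all 10.

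Culture without IL-4 lowered many members. From before culture to 18 h with nothing added, wild-type cells of mice 6 to 10 had 19 members called lower, where 26.4% of all genes were, and 1 higher (Fscn1), where 13.2% were. The arrays did not overlap for 12 members below, as for 13.6% of all genes, and for 1 above, as for 8.87%. The member median was -0.31, or -0.18 with median centring and -0.13 with quantile normalization. The median of all genes itself lay at -0.15, and with each array centred on its median 14 members were called lower and 3 higher (Fscn1, Arpc2 and Arhgdib). The dark corner ratio was 0.14 to 0.68 in WT_Pre 6 to 9, -0.91 in WT_Pre 10 and -1.29 to -0.82 in WT_Ctrl. With that ratio as a covariate fewer members were called lower, as counted at the end. Its part in the result was not tested further.

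Cotl1 gave log2 ratios of -0.08, 0.08, -0.25, -0.27 and -0.05 in WT_Pre mice 6 to 10 and -1.47, -0.78, -1.09, -1.04 and -0.89 in WT_Ctrl. Mouse 6 was the lowest after culture, the groups did not overlap, and the log2 difference was -0.94 (SE 0.11, adjusted p = 2.19e-07). Actb gave -0.12, 0.19, -0.20, -0.33 and -0.34 in WT_Pre and -1.18, -0.98, -0.95, -1.04 and -0.98 in WT_Ctrl. Every cultured array lay below every array before culture, with a log2 difference of -0.86 (SE 0.11, adjusted p = 9.12e-07). Vim gave 0.24, 0.26, 0.03, -0.15 and -0.41 in WT_Pre against the WT_Ctrl values given above. The groups overlapped and the log2 difference was -0.86 (SE 0.25, adjusted p = 0.00854). Actr3 differed by -0.73 (SE 0.12, adjusted p = 3.18e-05), with WT_Pre at -0.13, -0.27, 0.09, -0.13 and -0.14 and no overlap. Abi1 differed by -0.56 (SE 0.12, adjusted p = 0.000619), with WT_Pre at 0.41, 0.02, 0.37, 0.33 and -0.07 and no overlap. Ezr gave 0.31, 0.03, 0.15, 0.17 and -0.14 in WT_Pre and -0.87, -0.40, -0.57, -0.52 and -0.50 in WT_Ctrl. All 4 membrane linkers were called lower, Ezr by the most, with a log2 difference of -0.67 (SE 0.09, adjusted p = 5.02e-06).

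Fscn1 gave 0.09, 0.15, 0.22, 0.19 and 0.55 in WT_Pre and 0.79, 1.65, 1.48, 0.97 and 1.41 in WT_Ctrl. Every cultured array lay above every array before culture, and Fscn1 rose by a log2 difference of 1.02 (SE 0.18, adjusted p = 7.62e-05). Of the 11 dendritic cell markers, fascin among them, 7 were called lower and 1, fascin itself, higher. Myo1g differed by -0.43 (SE 0.12, adjusted p = 0.0071), with WT_Pre at -0.33, -0.17, -0.29, -0.21 and -0.51, which mouse 7 after culture overlaps, and its sign turned to 0.01 after quantile normalization. Arhgef1 differed by -0.47 (SE 0.14, adjusted p = 0.0118), with WT_Pre at 0.38, 0.29, 0.22, 0.37 and -0.49, which overlaps WT_Ctrl. The Arhgef1 probes gave -0.78 (adjusted p = 0.0102 among probes), called lower, and -0.16 (adjusted p = 0.291), not called. Vasp was not called at -0.39 (SE 0.24, adjusted p = 0.193), with WT_Pre at 0.20, 0.23, -0.22, 0.10 and -1.24 and WT_Ctrl at -0.89, -0.21, -0.71, -0.54 and -0.56. Its array before culture numbered 10 is the lowest of all 10 arrays.

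Without the arrays before culture numbered 10, 26 members were called lower, adding Actg1, Cfl1, Tmsb10, Vasp (-0.65, adjusted p = 0.00184), Capzb, Iqgap1 and Myh9, and 0 calls were lost. When 1 array was left out, Tmsb4x lost its call for WT_Pre 6, 7, 8 and 9 and WT_Ctrl 6, 8 and 9 (up to 0.138), Rdx for WT_Pre 6, 7, 8 and 9 and WT_Ctrl 7, 8 and 10 (up to 0.114) and Arpc1b for WT_Pre 7, 8 and 9 and WT_Ctrl 8 (up to 0.0902). With the mouse as a block, Tmsb4x (-0.46, adjusted p = 0.0608) and Rdx (-0.32, adjusted p = 0.0541) were not called, and Nckap1l (-0.20, adjusted p = 0.0419) and Cfl1 (-0.34, adjusted p = 0.0429) were. That block joins the arrays numbered 10 as 1 mouse, although their sex-linked RNA differed. A block without the arrays before culture numbered 10, added after the data were seen, called 27 lower and 1 higher, with Tmsb4x and Rdx among them. Quantile normalization left 11 lower and 3 higher calls, and among all called genes the share higher was 54.3% with it, 50.5% with median centring and 33.3% without.

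In knockout cells most members were lower after the same step. Between KO_Ctrl and KO_Pre, 33 members were called lower, where 31.2% of all genes were, and 2 higher, Actn1 and Fscn1, where 19.8% were. The arrays did not overlap for 24 members below, as for 16.3% of all genes, and for 2 above, as for 13%. The member median was -0.63 and that of all genes -0.12, and with each array centred on its median 31 were lower and 2 higher. The lower calls included 5 of 5 Arp2/3 genes, 5 of 7 activators, 6 of 6 actin and monomer genes, 2 of 4 elongation and capping genes, 6 of 9 crosslinkers, 3 of 4 myosins and tropomyosins, 3 of 4 membrane linkers and Vim.

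By label the KO_Pre RNAs of mice 6 to 10 are those of the reference pool. However, KO_Pre 10 had log2 ratios to that pool of 4.99 for Xist and -10.71 for Eif2s3y. An Xist ratio so far above 0 would not arise from 1 of 5 equal parts of the pool. Vim gave 0.42, 0.39, -0.01, -0.17 and -0.52 in KO_Pre, far above the KO_Ctrl values given before, and its log2 difference was -2.59 (SE 0.25, adjusted p = 4.71e-09), a 6.04-fold lower level. Cotl1 gave -0.31, -0.22, -0.20, -0.18 and 0.02 in KO_Pre and -1.79, -1.89, -1.62, -2.01 and -1.90 in KO_Ctrl. The groups lay far apart, and the difference was -1.66 (SE 0.11, adjusted p = 2.84e-12). Flna gave -0.28, -0.10, -0.16, -0.41 and -0.63 in KO_Pre, above every KO_Ctrl array, with a log2 difference of -1.59 (SE 0.15, adjusted p = 4.77e-09). Actb gave -0.01, 0.10, 0.08, 0.16 and -0.25 in KO_Pre and -1.46, -1.57, -1.51, -1.58 and -1.30 in KO_Ctrl. Cultured arrays were all lower, with a log2 difference of -1.50 (SE 0.11, adjusted p = 2.43e-11).

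For Myo1g, KO_Pre was at -0.13, -0.12, 0.00, -0.31 and -0.29 and the log2 difference was -1.43 (SE 0.12, adjusted p = 5.98e-10). For Actr3, KO_Pre was at -0.16, -0.12, 0.05, 0.02 and 0.06 and the log2 difference was -1.41 (SE 0.12, adjusted p = 3.65e-10). Wipf1 had KO_Pre ratios of 0.31, 0.46, 0.09, 0.17 and -0.73 and a log2 difference of -1.17 (SE 0.17, adjusted p = 3.16e-06). In these 3 genes no cultured array overlapped those before culture, which held as well for Evl (-0.82, SE 0.09, adjusted p = 3.57e-08), Msn (-0.92, SE 0.11, adjusted p = 8.58e-08) and Arhgef1 (-0.84, SE 0.14, adjusted p = 3.05e-05). Evl had KO_Pre ratios of 0.08, 0.22, 0.10, 0.04 and -0.11. Msn had -0.13, -0.08, 0.26, 0.13 and -0.09 and Arhgef1 -0.14, 0.07, 0.14, 0.06 and -0.31. Actn1 went up, from -0.15, 0.02, 0.12, 0.23 and 0.08 in KO_Pre to 0.80 to 1.51, without overlap, by a log2 difference of 1.06 (SE 0.20, adjusted p = 8.94e-05). Fscn1 rose from 0.10, 0.67, 0.12, 0.29 and -0.11 to 0.97 to 1.14, by 0.85 (SE 0.18, adjusted p = 0.00026).

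All 35 calls held when any 1 array was left out, and leaving out the arrays before culture numbered 10 changed 0 of them. With the ratio at each array's dark corner controls, which carry no target, as a covariate, 18 members were called lower and 1 higher. Quantile normalization left 22 lower and 1 higher, and the share of higher genes among all calls was 50.4% in place of 38.8%. Of the 9 B cell markers 8 were called lower in knockout cells over this step and 2 in wild-type cells. Over all genes 31.2% were called lower in knockout and 26.4% in wild-type cells. NK cell markers were called lower in 8 of 10 in knockout and 9 of 10 in wild-type cells, and higher in 1 and 0. Platelet markers were called lower in 5 of 8 and 6 of 8, and higher in 1 and 0. In knockout cells most other lists moved both ways. Macrophage and monocyte markers had 6 lower and 4 higher calls of 15, and neutrophil markers 5 and 2 of 12. T cell markers had 2 and 3 of 9, and erythroid markers 1 and 2 of 9. Dendritic cell markers had 5 and 1 of 11, plasma cell markers 4 and 2 of 8, and stromal and endothelial markers 3 and 0 of 8. In wild-type cells these lists had, in the same order, 8 and 3, 6 and 2, 1 and 2, and 3 and 0. The last lists had 7 and 1, 4 and 1, and 1 and 0 there. Their part in the result was not tested.

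The culture effects of the genotypes differed by test for 12 members. The difference, knockout minus wild-type, was called lower for 11, where 4.46% of all genes were, and higher for Actn1, where 2.22% were, and the member median was -0.37 against 0.05 for all genes. Vim had the largest, -1.74 (SE 0.35, adjusted p = 0.00244), from effects of -0.86 in wild-type and -2.59 in knockout cells. Flna followed at -1.33 (SE 0.22, adjusted p = 0.000338), from effects of -0.26 and -1.59. Myo1g differed by -1.00 (SE 0.17, adjusted p = 0.000509) and Evl by -0.85 (SE 0.12, adjusted p = 0.000123). For Evl the wild-type effect was 0.03 and the knockout effect -0.82. Cotl1 had -0.73 (adjusted p = 0.00295), Actr3 -0.68 (adjusted p = 0.0106), Actb -0.64 (adjusted p = 0.00918), Was -0.54 (adjusted p = 0.00974), Arpc5 -0.48 (adjusted p = 0.0319), Arpc2 -0.48 (adjusted p = 0.00393) and Arhgdib -0.43 (adjusted p = 0.0414), all below 0. The Arhgdib probes gave -0.64 (adjusted p = 0.00401 among probes), called lower, and -0.22 (adjusted p = 0.428), not called. Actn1 stood above 0 at 0.94 (SE 0.28, adjusted p = 0.042), from effects of 0.12 and 1.06. By role these included 3 of 5 Arp2/3 genes, 1 activator, 1 of the actin and monomer genes, 1 elongation gene, 3 crosslinkers, 1 myosin and vimentin, with 0 of the 4 membrane linkers.

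The comparison shares its KO_Ctrl and WT_Ctrl arrays with the genotype comparison above, so the 2 are not independent. Without the arrays before culture numbered 10, 15 members were called lower, with Wipf1, Actg1, Tmsb10 and Lcp1 added, and Actn1 was not called (0.87, adjusted p = 0.0875). With the mouse as a block, Arpc5 (-0.48, adjusted p = 0.0533) and Actn1 (0.94, adjusted p = 0.0685) were not called. With the block and without the arrays before culture numbered 10, 13 were called lower, Arpc5 among them, and Actn1 was not called (0.81, adjusted p = 0.162). When 1 array was left out, 9 of the 12 calls held each time. The exceptions were Actn1, lost for WT_Pre 8, 9 and 10, WT_Ctrl 7, 8, 9 and 10, KO_Pre 6, 7 and 8 and KO_Ctrl 7 and 10 (up to 0.0875), Arpc5, lost for WT_Pre 8, 9 and 10, WT_Ctrl 7 and 10, KO_Pre 6, 7 and 9 and KO_Ctrl 7 and 9 (up to 0.0693), and Arhgdib, lost for all but WT_Pre 7 and 9, WT_Ctrl 6, KO_Pre 10 and KO_Ctrl 8 (up to 0.0841). Quantile normalization left 5 lower calls, and the share of higher genes among all calls went from 33.2% to 19.5%.

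Genes around the members moved as follows. Of 63 other actin binding genes, 17 were called lower and 0 higher in KO_Ctrl against WT_Ctrl, where 8.43% and 6.87% of all genes were. The furthest were Gsn (gelsolin, which severs and caps filaments) at -1.81 (adjusted p = 2.6e-08) and Abi3 (a WAVE complex subunit) at -1.39 (adjusted p = 0.000473). With IL-4 the genotype comparison called 9 of the 63 lower and 1 higher, where 9.85% and 8.57% of all genes were. Here Gsn was at -1.07 (adjusted p = 7.9e-05), Pls3 (T-plastin) at -1.24 (adjusted p = 0.00292) and Tpm1 at 0.53 (adjusted p = 0.000914). Of 18 tubulin and microtubule genes, 3 were called lower and 0 higher in each of these comparisons, beside the same shares.

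Of the 63 actin binding genes IL-4 lowered 12 and raised 8 in wild-type cells, where 11.4% of all genes were called lower and 15.5% higher, and 4 and 4 in knockout cells, where 4.39% and 4% were. Coro2a, a coronin, was higher in both, with log2 differences of 1.23 (adjusted p = 2.52e-07) and 1.33 (adjusted p = 1.86e-07), and Myo1f, a class I myosin, lower in both, with -2.11 (adjusted p = 5.06e-09) and -1.20 (adjusted p = 0.000113). Nckap1, the widely expressed relative of Nckap1l, was higher in wild-type cells by 1.58 (adjusted p = 0.000146), and Sptbn1 (spectrin) differed by -0.95 (adjusted p = 0.000582). In knockout cells Abi2 was higher by 0.89 (adjusted p = 0.0333) and Myo5a differed by -0.60 (adjusted p = 2.35e-05). Tubulin genes were called higher in 4 of 18 in wild-type and 2 of 18 in knockout cells, and lower in 0 of both, beside the same shares over all genes, Tubb3 being at 1.23 (adjusted p = 0.00585) and Tuba4a at 0.47 (adjusted p = 0.0132).

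In culture with nothing, 19 of the 63 actin binding genes were called lower in wild-type cells, where 26.4% of all genes were, and 31 in knockout cells, where 31.2% were, with 3 higher in each, where 13.2% and 19.8% were. The wild-type count of lower genes is near that share. In knockout cells Gsn differed by -2.47 (adjusted p = 1.46e-12) and Lsp1, an actin binder of white blood cells, by -1.57 (adjusted p = 8.15e-10), and the genotypes differed in these effects by -1.81 (adjusted p = 1.9e-05) and -1.26 (adjusted p = 0.000166). In wild-type cells Myl9 (a myosin light chain) differed by -1.49 (adjusted p = 0.00681) and Myh10 by -1.40 (adjusted p = 1.83e-05). Tln2, the second talin, was higher in both genotypes, by 0.57 (adjusted p = 0.0243) and 1.01 (adjusted p = 0.000154).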

How the data were processed

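The 40 arrays (Agilent mouse, 2 colours) were read from the series' table of deposited values, log2 ratios of the Cy5 sample to the Cy3 reference as the authors computed them, per the labels with Agilent software and GeneSpring. The submitters' processing notes name Agilent Feature Extraction 11.0.1.1. How ratios were normalized within an array is not given in the sources used here, and no intensities were used, so background correction, a filter on dim probes and a slide block were not run. Precision is limited by how many arrays there were. Of 39485 probes, 56 were controls, 8804 had no gene symbol and 30625 had 1. Probes of a gene were averaged, giving 21892 genes with 0 missing values.

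Tests were limma 3.58.1 in R 4.3.3 (lmFit and eBayes), with Benjamini-Hochberg adjustment over all 21892 genes and a call at an adjusted p under 0.05. The comparison before culture used 20 arrays, without the cultured groups because their spread differs. The other 8 used 1 fit of the 30 arrays of mice 6 to 10, without a block. In that fit all groups, before culture and cultured, share 1 estimate of spread. Scripts were tested on simulated data. Replicates are separate mice by their numbers. Cells of 1 mouse pair the comparisons within a genotype, since samples of equal number share an animal by label, which sex-linked RNA contradicts for number 10 before and after culture (correlation of deviations 0.171 to 0.295 between WT_Ctrl and WT_IL4, -0.281 to 0.276 between KO_Ctrl and KO_IL4, -0.109 to 0.149 between WT_Pre and WT_Ctrl, and -0.121 to 0.0965 between KO_Pre and KO_Ctrl). Equal numbers of WT_Pre and KO_Pre deviated together in every pair (0.225 to 0.543), and there the block called 0 members too.

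Values by array are given for the 3 called members of largest absolute log2 difference in each direction and for the largest in each role of 3 or more members, or for the 3 of lowest p where none was called, and for called members in the differences of effects. From each related list the 2 called genes of largest difference in each direction were eligible. Of the related lists, 1 is not reported here. Members and lists were chosen with earlier results of these data known. Alternatives were median centring, quantile normalization, genes of SD above the median, the median of probes, a replicate block, a dark corner covariate, only the groups compared, array weights, an absolute log2 difference of at least 1, and leaving out arrays.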

Additional observations from a re-analysis of the deposited data

Results flagged for a closer look

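In groups of 5 or 10 arrays, 12 of 198 sets of values (33 members in 6 groups) held 1 array far from the others. Chance flags about 1 in 20 such sets. Wild-type mouse 6 accounts for 6 of them. Its log2 ratio with nothing was -1.25 for Actr3, against -0.83 to -0.68 in the other mice, and -0.28 for Evl, against 0.10 to 0.18. With IL-4 it was -1.18 for Actr3 (others -0.62 to -0.58), -1.24 for Flna (-0.81 to -0.69), -1.51 for Lcp1 (-1.29 to -1.24) and 0.20 for Pak2 (-0.03 to 0.03). Knockout mouse 6 with IL-4 had -1.85 for Pak2, against 0.08 to 0.24 in the other mice, and 0.32 for Rdx, against 0.01 to 0.06. Knockout mouse 8 with nothing had -0.28 for Tpm4 (others -0.91 to -0.78) and -0.35 for Rdx (-0.03 to 0.10). Before culture, knockout mouse 9 had 0.60 for Pfn1 (-0.07 to 0.24), and wild-type mouse 1 had 0.36 for Arpc5 (-0.37 to -0.04).

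The effect of IL-4 differed between genotypes by the interaction test for Evl (log2 difference of effects 0.50) and Actn1 (-1.17). The effect of culture differed for Vim (-1.74), Flna (-1.33), Myo1g (-1.00), Evl (-0.85), Cotl1 (-0.73), Actr3 (-0.68), Actb (-0.64), Was (-0.54), Arpc5 (-0.48), Arpc2 (-0.48), Arhgdib (-0.43) and Actn1 (0.94).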

How the results depend on the processing

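Counts of members are given as higher and lower calls. KO_Ctrl against WT_Ctrl had 1 and 23 calls. Its higher count was 0 with median centring, quantile normalization, the SD filter, the replicate block, the dark corner covariate, only the groups compared and the difference of at least 1, and 3 with array weights. Its lower count was 6 with quantile normalization, 7 with the SD filter, 14 with only the groups compared and 3 at the difference of at least 1. KO_IL4 against WT_IL4 had 0 and 18. Its higher count was 1 with quantile normalization, the block and the dark corner covariate, and its lower count 3 with quantile normalization, 5 with the SD filter and 1 at the difference of at least 1. WT_IL4 against WT_Ctrl had 4 and 13. Its higher count was 0 with quantile normalization, the SD filter and the difference of at least 1, 1 with the dark corner covariate and 7 with array weights, and its lower count 6 with the SD filter and 0 at the difference of at least 1. KO_IL4 against KO_Ctrl had 0 and 4, with 1 higher call under array weights, and 0 lower with quantile normalization, 1 with the SD filter and 0 at the difference of at least 1. The difference of IL-4 effects had 1 and 1. Of these the higher count was 0 with median centring, quantile normalization, the SD filter, only the groups compared and the difference of at least 1, and 5 with array weights, and its lower count 0 with quantile normalization, the SD filter, the block and only the groups compared.

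WT_Ctrl against WT_Pre had 1 and 19, with 3 higher calls with median centring and quantile normalization and 2 with the dark corner covariate. The lower count was 11 with quantile normalization, 8 with the SD filter, 9 with the dark corner covariate and 0 at the difference of at least 1, and Myo1g turned to 0.010 with quantile normalization. KO_Ctrl against KO_Pre had 2 and 33. Here the higher count was 1 with quantile normalization, the SD filter, the dark corner covariate and the difference of at least 1, and its lower count 22 with quantile normalization, 10 with the SD filter, 18 with the dark corner covariate and 10 at the difference of at least 1. The difference of culture effects had 1 and 11. Its higher count was 0 with median centring, quantile normalization, the SD filter, the block, the dark corner covariate, without the arrays numbered 10 before culture, with these left out and the replicate block together (chosen after seeing the data), and at the difference of at least 1. Its lower count was 5 with quantile normalization, 4 with the SD filter, 19 with array weights and 2 at the difference of at least 1. The SD filter kept 11 of the 43 members among the 30 arrays and 6 among the 20, which limits its counts. The cause of the other changes was not tested. Before culture the counts were 0 and 0 under every alternative run.

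Leaving out 1 array gave 0 to 2 higher and 19 to 25 lower calls for KO_Ctrl against WT_Ctrl, 0 and 15 to 19 for KO_IL4 against WT_IL4, 1 to 5 and 11 to 14 for WT_IL4 against WT_Ctrl, 0 to 1 and 4 for KO_IL4 against KO_Ctrl, 0 to 5 and 0 to 1 for the difference of IL-4 effects, 1 and 16 to 26 for WT_Ctrl against WT_Pre, 2 and 33 to 34 for KO_Ctrl against KO_Pre, and 0 to 1 and 9 to 16 for the difference of culture effects. Between the cultured genotypes equal mouse numbers name different animals, and the deviations of equal numbers correlated at -0.171 to 0.169 with nothing and at 0.0911 to 0.299 with IL-4. With the replicate block there, Actn1 was not called with nothing (adjusted p = 0.0548) or with IL-4 (adjusted p = 0.0536), Pfn1 was called lower with nothing (24 lower calls in all) and Wasf2 higher with IL-4 (17 lower calls in all). Array number limits precision, and no signal over background was read.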
